A study of Homo sapiens and Mus musculus with 55 samples.

Results

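The 10 genes described here set the timing of the G1 phase of the cell cycle: the D-type cyclins CCND1, CCND2 and CCND3, the E-type cyclins CCNE1 and CCNE2, the kinases CDK4 and CDK6, the inhibitors CDKN1B (p27) and CDKN2C (p18), and RB1, the retinoblastoma protein. They were taken by symbol from RNA-seq tables of 55 libraries, in which 39118 human and 28000 mouse gene symbols are listed. All 10 are in both mouse tables, where 10 of 10 passed the filter on low values, a table mean of at least 10 normalized reads. Of the 10, 9 passed in each of the 8 human tables. CCND2 was the one that did not. The 3 human tables that list it have group means of at most 8.69 normalized reads, and in the other 5 it was not analysed here.

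As background, growth signals raise D-type cyclins, which bind CDK4 or CDK6 and start the phosphorylation of RB1. Phosphorylated RB1 lets go of E2F transcription factors, which then raise the E-type cyclins and the genes of DNA replication. CDKN2C blocks CDK4 and CDK6 directly, whereas CDKN1B mainly blocks the kinase CDK2 bound to cyclin E. MYC, the transcription factor at the centre of the study, is a known activator of this step, and several of these genes are altered in breast cancer.

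The study asked how MYC bears on STING, the adaptor of cytosolic DNA sensing (gene STING1, listed as TMEM173), in triple-negative breast cancer cells. In the human lines MDA-MB-436 and SUM159PT, both from breast carcinoma, derivatives labelled Tax-R were set against their parental line, neither with a treatment, and Tax-R cells that received MYC siRNA-1 or MYC siRNA-2 were set against Tax-R cells with control siRNA. In both lines, STING sgRNA cells of the groups C1 and C2 were set against mock cells, and STING sgRNA cells with an added STING open reading frame (ORF) against STING sgRNA cells with a GFP ORF, so that both ORF groups carry the STING sgRNA. Each human group had 2 libraries. In mouse mammary lines, 4T1 cells with either MYC siRNA were set against control siRNA, and Py230 cells carrying a Sting1 shRNA were set with doxycycline against vehicle, with 3 libraries a group. No dose or time is given, nor how Tax-R cells were derived, nor whether C1 and C2 are guides, clones or pools, and all Py230 libraries carry the shRNA, so that no library shows doxycycline without it. Nothing says that libraries of a group came from separate cultures, and p-values then measure only the spread between these libraries, which may be technical.

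Values are reads per gene divided by the authors' factor for each library within 1 table (normalized reads), and each table was normalized and tested alone. Depth was 5663610 to 13191675 reads per library. Libraries differ by table as well as by label. The Tax-R and parental tables of the 2 lines held 34381 and 36036 genes, against 26024 to 27152 in the other human tables. Over 12382 genes, the Spearman correlation was 0.984 to 0.986 between Tax-R libraries of MDA-MB-436 and of SUM159PT, above the 0.964 to 0.969 between Tax-R and parental libraries of 1 line, while it was 0.615 to 0.846 between these libraries and those of the same line in the other tables. VIM, a mesenchymal marker, was at 99.6 to 136 CPM (counts scaled to library depth) there and at 1440 to 2881 in the other human tables. SUM159PT mock libraries, over 12953 genes, correlated at 0.890 to 0.893 with MDA-MB-436 Tax-R libraries with control siRNA and at 0.868 to 0.871 with those of SUM159PT, against the line labels. Likeness followed the labels for MDA-MB-436 mock libraries, at 0.895 to 0.897 with those of MDA-MB-436 and 0.866 to 0.868 with those of SUM159PT. It did so too between SUM159PT mock and GFP ORF libraries, at 0.985 with SUM159PT and 0.929 to 0.937 with MDA-MB-436. RB1 levels, given below, also differ between tables of 1 line. Which line each library holds was not tested, and line names, also in the CRISPR and ORF results, are those of the labels. Line, table and processing cannot be told apart in this, and no test below crosses tables. The epithelial keratins KRT8 and KRT18 had reads in every human library, EPCAM did not exceed 1.90 CPM as a group mean in any human group and CDH1 0.61, ESR1 (the oestrogen receptor) did not exceed 1.65 and ERBB2 (HER2) was at 59.3 to 161, and Epcam and Cdh1 were well expressed in both mouse lines. Of the 3 leukocyte markers analysed here, CD3E was at or near 0, ITGAM did not exceed 3.23, and PTPRC made up almost all of the list's sum. That sum was 26.9 in Tax-R and 185 in parental libraries of MDA-MB-436, 0.493 in Tax-R and 49.3 in parental libraries of SUM159PT, and 0.572 in C1, 0.373 in C2 and 15.1 in mock libraries of SUM159PT (CPM, group means). In MDA-MB-436 it was 178 in C1, 188 in C2 and 151 in mock libraries, and 72.2 with STING ORF against 93.3 with GFP ORF. It did not exceed 1.52 in any human siRNA group. The sum moves with the group in the Tax-R and CRISPR comparisons of both lines and the ORF comparison of MDA-MB-436. Its part in the results was not tested. The 2 MDA-MB-436 Tax-R libraries differed by less than sampling noise over most genes (chi-square of 0.85 per gene, against 1.02 to 2.93 in the other 34 replicate pairs). The CDK6 and CDKN1B results that rest on them are also given with the pair counted as 1. Results of the other members and of the listed genes there treat the pair as 2 libraries.

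Promoters are shown for both members with a match to the E-box CACGTG, which MYC is known to bind, and for 1 member without. RefSeq's promoter table (GRCh38.p14) matched 7 of the 10 members, with 12 start sites. The 250 bases before each start were searched for CACGTG, which reads the same on both strands, and for the E2F motifs TTTCCCGC, TTTCGCGC, TTTGCCGC and TTTGGCGC on both strands. CACGTG was found before 3 of the 12 starts, and in 6.34% of 35116 windows of the same length. The 3 starts belong to CDK4 and CDKN2C, and the windows of CDK6, RB1, CCND3, CCNE1 and CDKN1B had no match. For RB1 the window searched was chr13:48476200-48476449, plus strand. No other RB1 start was searched, and whether this one is the gene's main promoter was not checked. With MYC siRNA, described below for each line, CDK4, CDK6, RB1, CCND3 and CCNE1 were called in both human lines and CDKN2C in SUM159PT. CDKN1B was called in both as well, higher in MDA-MB-436 (0.24) and lower in SUM159PT (-0.17). The E2F motifs were found before 0 of the 12 starts and in 2.79% of all windows. CDK4 has 3 matches, beginning at -216, -196 and -101 from the start (chr12:57752311-57752560, minus strand, capitals mark CACGTG).
CDK4: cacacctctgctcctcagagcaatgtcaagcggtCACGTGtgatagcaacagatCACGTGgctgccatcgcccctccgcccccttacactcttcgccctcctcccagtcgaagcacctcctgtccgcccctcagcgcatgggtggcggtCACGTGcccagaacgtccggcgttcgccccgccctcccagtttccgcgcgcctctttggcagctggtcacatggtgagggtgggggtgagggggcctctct
CDKN2C has a match before 2 of its 3 starts, and the nearer one begins at -69 (chr1:50969995-50970244, plus strand).
CDKN2C: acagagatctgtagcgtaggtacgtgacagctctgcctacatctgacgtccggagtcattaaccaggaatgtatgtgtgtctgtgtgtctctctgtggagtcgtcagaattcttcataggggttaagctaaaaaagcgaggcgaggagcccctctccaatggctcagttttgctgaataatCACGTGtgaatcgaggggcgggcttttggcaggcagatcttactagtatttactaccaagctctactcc
CDK6 has no match before either of its 2 starts, of which the upstream one is shown (chr7:92836574-92836823, minus strand).
CDK6: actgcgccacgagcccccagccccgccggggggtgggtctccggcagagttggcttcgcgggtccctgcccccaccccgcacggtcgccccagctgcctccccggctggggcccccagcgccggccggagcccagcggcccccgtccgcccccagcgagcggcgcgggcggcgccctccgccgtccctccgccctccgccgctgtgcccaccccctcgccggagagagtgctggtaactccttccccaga
A match is a run of letters in these windows and says nothing of binding, and no match says only that the letters are not there.

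Levels per length differed widely among the members. In CPM per kilobase of exon (GENCODE v29), human group means ran from 15.5 to 86.5 for CDK4, the kinase, and from 8.50 to 120 for CCND1, its main cyclin partner in breast cells. CDK6 ran from 3.60 to 55.0, CCND3 from 12.7 to 33.5, CDKN2C from 7.80 to 22.98 and CDKN1B from 6.92 to 18.1. The E-type cyclins were at 2.30 to 14.8 for CCNE1 and 1.58 to 21.3 for CCNE2, and RB1 ran from 0.524 to 15.4. CCND2 did not exceed 0.111 as a mean of any of the 7 groups that the tables listing it hold.

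RB1 had the highest ratio of its highest to its lowest human group mean among the 9 members tested, although CDK6, CCND1 and CDK4 spanned more CPM. In libraries labelled SUM159PT it was at 93.9 ± 2.41 in Tax-R and 78.5 ± 0.528 in parental libraries, in CPM (SD, n = 2 each). In the siRNA table of the same line, libraries with control siRNA held 54.3 ± 1.19. In the CRISPR table, SUM159PT held 5.26 ± 1.28 in C1, 3.95 ± 0.951 in C2 and 3.38 ± 0.651 in mock libraries. The 5 SUM159PT groups of the CRISPR and ORF tables were the 5 lowest of the 20 human groups, all with library values of 2.79 to 6.16, and neighbours in that order overlap. In MDA-MB-436 every group stayed between 43.7 and 99.2 as a mean. Parental and mock libraries of SUM159PT thus differ in RB1 by far more than the replicates of either, between tables that were not tested against each other. As background, MDA-MB-436 is commonly listed among lines that lack functional RB1, which a transcript level does not show.

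CDK6 showed a different split. The highest group mean was 674 ± 4.66 CPM in MDA-MB-436 Tax-R libraries with control siRNA, followed by 569 ± 40.5 in those of SUM159PT. All 8 groups labelled Tax-R, with or without siRNA, were the 8 highest of the 20 human groups. The lowest was 44.1 ± 1.20 in SUM159PT STING sgRNA cells with GFP ORF, and the 7 groups just above it, all from the CRISPR and ORF tables, had library values between 61.6 and 80.2. Of these, neighbours in the order overlap, except the highest, C2 of SUM159PT. For CDK4, the 4 groups of the Tax-R and parental tables were the lowest, at 47.5 to 56.9 per library, against 109 to 288 in the other 32 human libraries. CCND1 was highest in MDA-MB-436 CRISPR and ORF groups, at 423 to 590 per library, and lowest in SUM159PT Tax-R libraries with MYC siRNA, at 39.8 to 46.3.

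**Figure D1:**
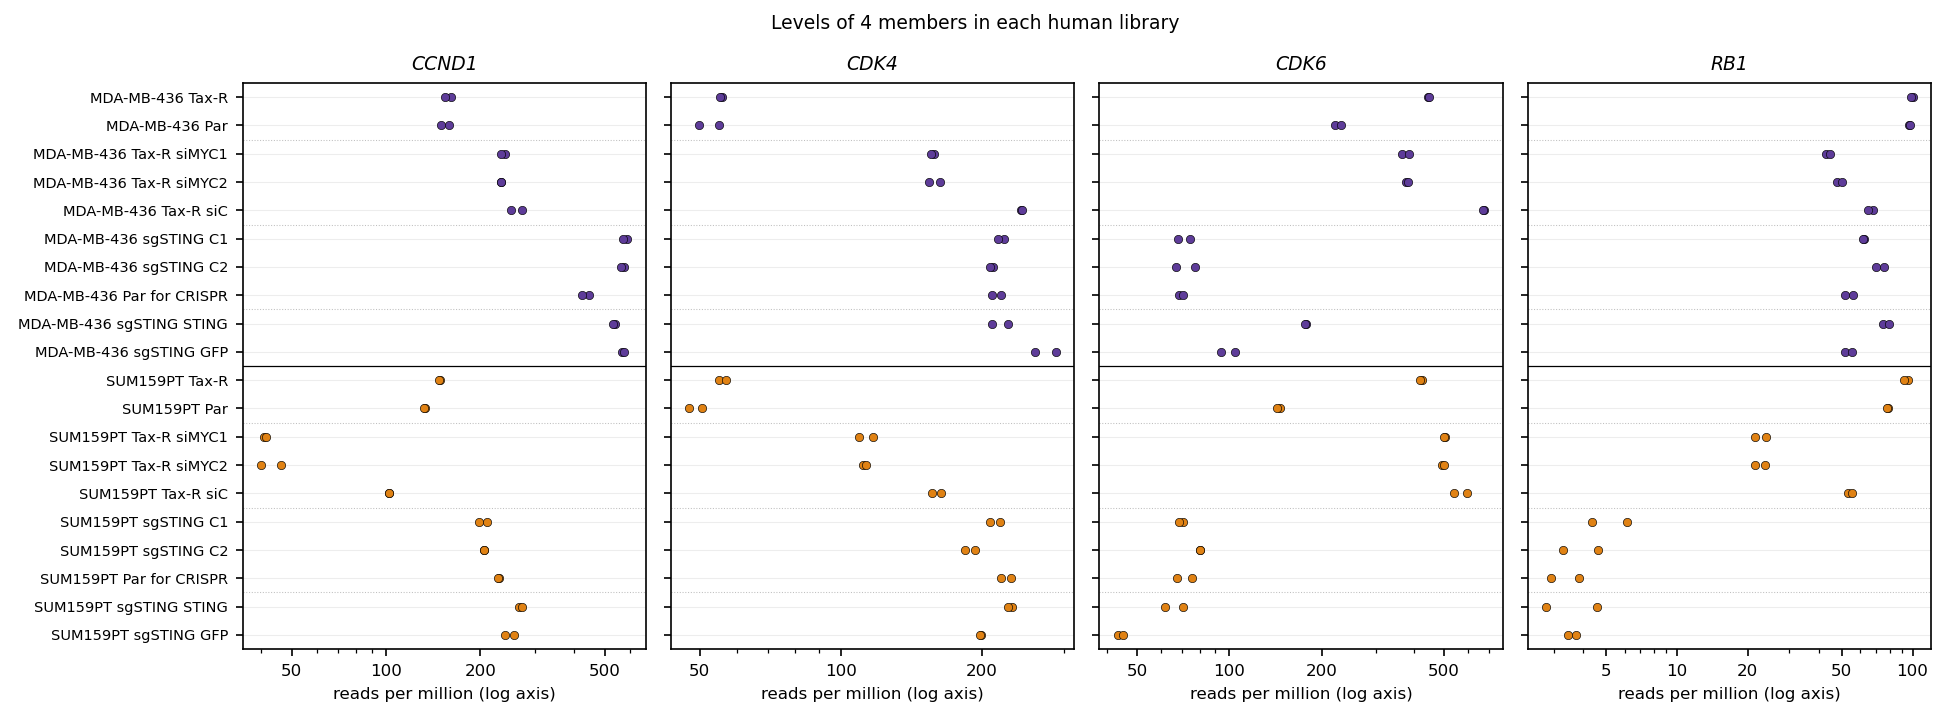
CPM (depth-scaled reads) on a log axis for CCND1, CDK4, CDK6 and RB1 in each human library, 1 point a library and 1 line a group, MDA-MB-436 above and SUM159PT below the solid line; dotted lines part the tables, which were normalized separately. RB1 is below 7 in all 10 libraries of the SUM159PT CRISPR and ORF tables, and CDK6 is highest in groups labelled Tax-R.

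In both lines, Tax-R cells had more CDK6 and less CDKN1B than parental cells. CDK6, the kinase partner of D-type cyclins, was at 5107 and 5149 normalized reads in MDA-MB-436 Tax-R libraries, against 2484 and 2603 in parental libraries. Both Tax-R libraries lie far above both parental ones. The log2 difference was 1.01 ± 0.04, limma adjusted p = 2.56e-09. In SUM159PT, CDK6 was at 4779 and 4721 in Tax-R and 1605 and 1569.6 in parental libraries. The groups do not overlap, and the log2 difference was 1.58 ± 0.04, limma adjusted p = 4.17e-09. In bulk libraries such as these, fewer cells of a type and less RNA per cell cannot be told apart.

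CDKN1B, the inhibitor p27, was at 409 and 393 in MDA-MB-436 Tax-R and 508 and 513 in parental libraries. It was at 311 and 311 in SUM159PT Tax-R and 412 and 406 in parental libraries. Tax-R libraries were the lower ones in both lines, without overlap. The log2 difference was -0.35 ± 0.05, limma adjusted p = 0.000147 in MDA-MB-436, and -0.39 ± 0.06, limma adjusted p = 0.000541 in SUM159PT. With the MDA-MB-436 Tax-R pair counted as 1, the log2 differences were 1.01, adjusted p = 8.58e-11 for CDK6 and -0.35, adjusted p = 0.000436 for CDKN1B. TMEM173 was lower in Tax-R cells of both lines, at 191 and 196 in Tax-R against 412 and 382 in parental libraries of MDA-MB-436 and 156 and 164 in Tax-R against 557 and 499 in parental libraries of SUM159PT. MYC passed the test in neither (-0.07 ± 0.04 and 0.11 ± 0.06). Fibroblast markers summed to 265 to 279 CPM in Tax-R and 313 to 327 in parental libraries of MDA-MB-436, and to 279 to 286 in Tax-R and 199.8 to 204 in parental libraries of SUM159PT. Endothelial markers were at 12.4 to 14.8 in Tax-R and 19.6 to 21.8 in parental libraries of MDA-MB-436, and at 8.11 to 8.89 in Tax-R and 29.6 to 31.3 in parental libraries of SUM159PT, and the part of either list was not tested.

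The 2 calls in MDA-MB-436 are 2 of 9 members tested, where 54.6% of all genes were called. The other 7 log2 differences there lay between -0.04 and 0.12. In SUM159PT 7 of 9 were called, where 45.7% of all genes were. Of the 7, 6 were higher. Besides CDK6, RB1 rose by 0.29 ± 0.04, limma adjusted p = 0.000358, with 1074 and 1038 in Tax-R and 864 and 859 in parental libraries. CDK4 (0.22 ± 0.05), the cyclins CCND1 (0.20 ± 0.04) and CCND3 (0.20 ± 0.05), and CCNE1 (0.27 ± 0.09) rose by less. CCNE2 and CDKN2C were at -0.04 ± 0.07 and -0.01 ± 0.06 and passed no test. The CCNE1 call was lost without parental replicate 2 (0.14, adjusted p = 0.163) or Tax-R replicate 1 (0.24, adjusted p = 0.0726), and that of CCND3 without Tax-R replicate 1 (0.17, adjusted p = 0.0583), with adjusted p over all alternatives of 0.00554 to 0.239 and 0.00441 to 0.187. In MDA-MB-436, CDK4 passed the test without parental replicate 2 (0.19, adjusted p = 0.0225, range 0.0225 to 0.539). In SUM159PT, DESeq2 on recovered reads did not call CDK4 (0.21, adjusted p = 0.2), CCND1 (0.18, adjusted p = 0.0775), CCND3 (0.19, adjusted p = 0.187) or CCNE1 (0.25, adjusted p = 0.239).

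Genes around the members are given from the lists named with the methods. Of E2F-driven S phase genes, 14 of 17 were higher and 0 lower, with a median log2 difference of 0.33 in MDA-MB-436 Tax-R cells, against a median of 0.01 over all genes. In SUM159PT, 15 of 17 were higher and 1 lower, with a median log2 difference of 0.19, against 0.01 over all genes. By DESeq2, 12 were higher and 0 lower in MDA-MB-436, and 7 higher and 0 lower in SUM159PT. Of all genes, limma called 5282 of 19085 higher in MDA-MB-436 and 4322 of 18370 in SUM159PT. Examples were MCM5, a subunit of the replicative helicase (0.62 ± 0.03 in MDA-MB-436), and MCM7, another (0.43 ± 0.04 in SUM159PT). E2F1 and E2F2, activating E2F factors, rose in both lines (0.44 ± 0.04 and 0.48 ± 0.04 in MDA-MB-436, 0.52 ± 0.04 and 0.48 ± 0.05 in SUM159PT). CDKN1A, the inhibitor p21, fell in MDA-MB-436 Tax-R cells (-0.91 ± 0.06) and rose in SUM159PT Tax-R cells (0.73 ± 0.07). CDKN1C, another CDK inhibitor, fell in both lines but had few reads. Its reads were 9 in Tax-R against 40 in parental libraries of MDA-MB-436 (-1.78 ± 0.32), and 8 against 63 in SUM159PT (-2.78 ± 0.29). CUL1, a scaffold of the ligases that degrade p27 and cyclin E, fell in both (-0.43 ± 0.04 and -0.38 ± 0.04). In MDA-MB-436 Tax-R cells, pocket proteins, E2F and DP factors had 4 of 12 higher and 4 lower, or 3 and 7 after quantile normalization (median -0.06). CDK2 and its activators had 4 of 6 higher and 2 lower there (median 0.18). Cyclin and p27 turnover genes had 3 of 8 higher and 3 lower (median -0.02), and other CDK inhibitors 0 of 3 higher and 3 lower (median -0.91). Among Tax-R cells of SUM159PT, pocket proteins, E2F and DP factors had 4 of 12 higher and 3 lower, or 3 and 4 after quantile normalization (median 0.04), and CDK2 and its activators 1 of 6 higher and 0 lower (median -0.01). In the same cells, cyclin and p27 turnover genes had 1 of 8 higher and 3 lower (median -0.08), and other CDK inhibitors 1 of 3 higher and 1 lower (median -0.04).

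**Figure D2:**
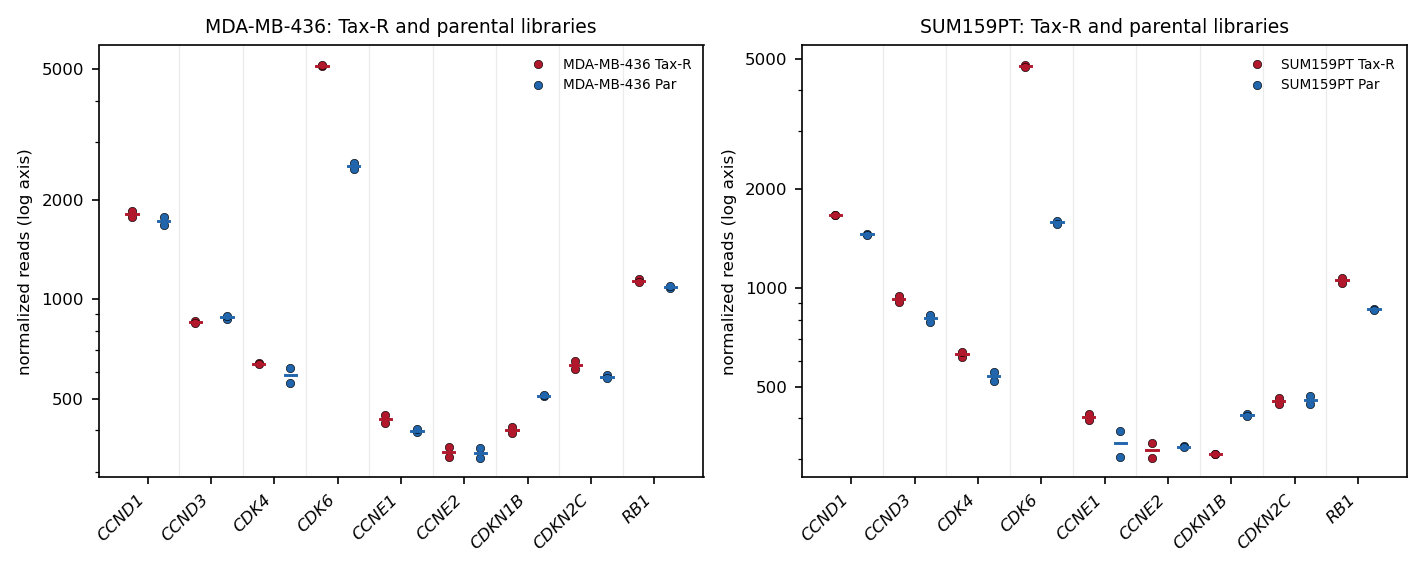
Normalized reads on a log axis for the 9 members tested, with 1 point a library (n = 2 a group) and a bar at each group mean, Tax-R in red and parental in blue. CDK6 is higher and CDKN1B lower in Tax-R libraries of both lines, without overlap.

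MYC siRNA in Tax-R cells was followed by lower CDK4, CDK6, RB1 and CCND1 in both lines, by small to large amounts, and by higher CCND3 and CCNE1. MYC itself was at 1897 and 1930.1 with siMYC1 and 1924 and 1906 with siMYC2, against 2058 and 2019 with control siRNA in MDA-MB-436 (-0.09 ± 0.03), so that siMYC there names the label of libraries with a small difference in MYC transcript. The SUM159PT libraries held 1538 and 1428 with siMYC1 and 1504 and 1426 with siMYC2, against 2727 and 2663 with control siRNA (-0.87 ± 0.04). All 9 members tested were called in SUM159PT, where 69.5% of all genes were, and 7 of 9 in MDA-MB-436, where 67.7% were. The share in MDA-MB-436 is close to the background. The fibroblast marker list (COL1A1, PDGFRB and DCN, 3 of 3 listed) moved with these groups. Its summed level was 1039 to 1043 CPM with siMYC1 and 915 to 938 with siMYC2, against 69.5 to 70.4 with control siRNA in MDA-MB-436, and 3611 to 3720.4 with siMYC1 and 3661 to 3839 with siMYC2, against 512 to 587 with control siRNA in SUM159PT. COL1A1, a collagen, made up nearly all of it, PDGFRB was higher with MYC siRNA in every library of both lines, and DCN was at 0 in both control libraries of MDA-MB-436 and did not exceed 0.301 CPM with MYC siRNA there. The endothelial list was at 3.78 to 5.56 with siMYC1 and 5.26 to 5.72 with siMYC2, against 1.84 to 2.24 with control siRNA in MDA-MB-436, and 19.54 to 20.06 with siMYC1 and 17.6 to 21.7 with siMYC2, against 7.98 to 9.49 with control siRNA in SUM159PT. The part of these lists in the results was not tested.

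CDK4 was at 1113 and 1097 with siMYC1 and 1087 and 1149 with siMYC2, against 1685 and 1697 with control siRNA in MDA-MB-436 Tax-R libraries. SUM159PT libraries were at 775 and 824 with siMYC1 and 791 and 802 with siMYC2, against 1124 and 1074 with control siRNA. Every MYC siRNA library lies below every control library in both lines. The log2 differences were -0.61 ± 0.04, limma adjusted p = 4.94e-14, in MDA-MB-436, and -0.46 ± 0.05, limma adjusted p = 7.02e-11, in SUM159PT. CDK4 is the member with 3 E-boxes in the promoter window shown above. CDK6, CCND3, CCNE1 and CDKN1B, also called in both lines, have none in the windows searched. The CCNE1 and CDKN1B calls in SUM159PT were lost under several alternatives, given below. RB1, called in both lines too, has none in the window named above, and its other starts were not searched.

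CDK6 was at 2561 and 2705 with siMYC1 and 2642 and 2698 with siMYC2, against 4707 and 4659 with control siRNA in MDA-MB-436. It was at 3587 and 3532 with siMYC1 and 3503 and 3549 with siMYC2, against 3710.4 and 4103 with control siRNA, in SUM159PT. Groups do not overlap in either line, but the gap is wide in MDA-MB-436 and narrow in SUM159PT. The log2 difference in MDA-MB-436 was -0.82 ± 0.03, limma adjusted p = 4.06e-20. In SUM159PT the log2 difference was -0.14 ± 0.04, limma adjusted p = 0.00109, which lost its call without control replicate 2 (-0.07, adjusted p = 0.0987, range 6.69e-09 to 0.0987) and was -0.21, adjusted p = 3e-06 without control replicate 1 and -0.30, adjusted p = 6.69e-09 after quantile normalization.

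RB1, the substrate of these kinases, was at 301 and 314 with siMYC1 and 337 and 352 with siMYC2, against 469.8 and 450.5 with control siRNA in MDA-MB-436. It was at 153 and 169 with siMYC1 and 168 and 152 with siMYC2, against 367 and 379 with control siRNA, in SUM159PT. Control libraries were the higher ones throughout. The log2 differences were -0.50 ± 0.06, limma adjusted p = 8.32e-08, in MDA-MB-436, and -1.22 ± 0.09, limma adjusted p = 9.14e-17, in SUM159PT.

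The cyclins moved in different directions. CCND1 was at 288 and 291 with siMYC1 and 283 and 328 with siMYC2, against 704 and 704 with control siRNA in SUM159PT, where it fell without overlap (-1.24 ± 0.07, limma adjusted p = 5.61e-21). In MDA-MB-436 it was at 1687 and 1642 with siMYC1 and 1639.7 and 1636 with siMYC2, against 1882 and 1735 with control siRNA, a log2 difference of -0.13 ± 0.04, limma adjusted p = 0.0025. That call was lost without control replicate 1 (-0.07, adjusted p = 0.179, range 0.000416 to 0.179). CCND3 was at 1373 and 1371 with siMYC1 and 1396 and 1332 with siMYC2, against 1068 and 966 with control siRNA in SUM159PT, and rose in both lines (0.43 ± 0.05, limma adjusted p = 7.02e-11, in SUM159PT, and 0.13 ± 0.04 in MDA-MB-436, where it was 0.10, adjusted p = 0.126 without control replicate 2, range 0.00542 to 0.126, and 0.13, adjusted p = 0.0882 in DESeq2).

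CCNE2, an E-type cyclin and itself an E2F target, was at 53.3 and 44.6 with siMYC1 and 51.2 and 49.3 with siMYC2, against 109.6 and 117 with control siRNA in SUM159PT (-1.18 ± 0.15, limma adjusted p = 3.57e-09), and passed no test in MDA-MB-436 (-0.02 ± 0.08). Its close relative CCNE1 went the other way, at 183 and 196 with siMYC1 and 169 and 196 with siMYC2, against 135 and 147 with control siRNA in MDA-MB-436 (0.40 ± 0.09, limma adjusted p = 0.000581). In SUM159PT, CCNE1 was low, at 54.3 and 58.3 with siMYC1 and 46.1 and 53.2 with siMYC2, against 28.8 and 51.7 with control siRNA. The groups overlap there, and the log2 difference of 0.44 ± 0.19, limma adjusted p = 0.0397, was 0.03, adjusted p = 0.914 without control replicate 1 and 0.85, adjusted p = 0.00152 without control replicate 2. The call was also lost without siMYC1 replicate 1 (0.46, adjusted p = 0.0581), siMYC1 replicate 2 (0.41, adjusted p = 0.0931) or siMYC2 replicate 2 (0.39, adjusted p = 0.0958), and by neither edgeR (0.40, adjusted p = 0.0546) nor DESeq2 (0.40, adjusted p = 0.271) was it made, over a range of 0.00152 to 0.914.

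The inhibitors differed between lines. CDKN2C, which blocks CDK4 and CDK6, was at 274 and 275 with siMYC1 and 288 and 287 with siMYC2, against 546 and 502 with control siRNA in SUM159PT (-0.90 ± 0.07, limma adjusted p = 1.88e-15). All 4 MYC siRNA libraries lie far below both controls. In MDA-MB-436 it was at 0.09 ± 0.06 and passed no test. CDKN1B was at 264 and 262 with siMYC1 and 264 and 289.9 with siMYC2, against 230.1 and 227 with control siRNA in MDA-MB-436, where it rose (0.24 ± 0.08, limma adjusted p = 0.00721). In SUM159PT it was at 313 and 302 with siMYC1 and 319.8 and 303 with siMYC2, against 341 and 356 with control siRNA (-0.17 ± 0.07, limma adjusted p = 0.0387). That small fall lost its call without control replicate 2 (-0.14, adjusted p = 0.16), siMYC1 replicate 1 (-0.18, adjusted p = 0.0527), siMYC1 replicate 2 (-0.16, adjusted p = 0.0949) or siMYC2 replicate 2 (-0.15, adjusted p = 0.107), range 0.0346 to 0.198, and the rise in MDA-MB-436 lost it in DESeq2 (0.24, adjusted p = 0.105).

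Members differed little between the 2 MYC siRNAs. Between siMYC2 and siMYC1, limma called 0 of 9 members in either human line. In MDA-MB-436, 0.195% of all genes were called between them by limma. At an unadjusted p under 0.05 there were 1569 genes by limma (10.19% of all), 1 of them a member. By edgeR there were 1641 (10.66%) and by DESeq2 327 (2.12%), 0 of them members. In SUM159PT, 0.0% were called by limma, edgeR or DESeq2, with 600 genes (limma), 645 (edgeR) and 38 (DESeq2) at an unadjusted p under 0.05, 0 of them members. Log2 differences of members between the siRNAs lay between -0.09 and 0.16 in MDA-MB-436, and between -0.18 and 0.07 in SUM159PT.

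Genes of DNA replication that E2F factors drive fell with MYC siRNA. Of E2F-driven S phase genes, 0 of 17 were higher and 17 lower, with a median log2 difference of -0.58 in MDA-MB-436, and 0 of 17 were higher and 17 lower, with a median log2 difference of -2.06 in SUM159PT, against a median of -0.01 over all genes in either line. CDC45, part of the replicative helicase, fell by 1.03 ± 0.07 on the log2 scale in MDA-MB-436, and in SUM159PT CDT1, a licensing factor, fell by 2.74 ± 0.09. CDK2, the partner of cyclin E, fell in both (-1.05 ± 0.06 and -1.92 ± 0.07), as did CDC25A, the phosphatase that activates it (-1.35 ± 0.06 and -2.58 ± 0.12). CDKN1A rose by 2.28 ± 0.04 in MDA-MB-436 and by 1.64 ± 0.04 in SUM159PT. SKP2, the adaptor that marks p27 for degradation, fell in both (-0.91 ± 0.05 and -1.37 ± 0.06). With MYC siRNA in MDA-MB-436, pocket proteins, E2F and DP factors had 1 of 12 higher and 7 lower (median -0.19), and CDK2 and its activators 0 of 6 higher and 5 lower (median -0.68). Of genes of cyclin and p27 turnover there were 2 of 8 higher and 5 lower (median -0.27), and other CDK inhibitors 2 of 2 higher and 0 lower (median 1.32). In SUM159PT with MYC siRNA, pocket proteins, E2F and DP factors had 0 of 12 higher and 10 lower (median -1.11), and CDK2 and its activators 0 of 6 higher and 6 lower (median -1.24). There, cyclin and p27 turnover genes had 2 of 8 higher and 4 lower (median -0.14), and other CDK inhibitors 2 of 3 higher and 0 lower (median 0.23).

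In mouse 4T1 cells the picture was different. Myc was at 2220.3, 2407 and 2232 with siMYC1 and 2339, 2366 and 2344 with siMYC2, against 2390.0, 2595 and 2433 with control siRNA, which did not pass the test (-0.09 ± 0.04, limma adjusted p = 0.0683), so that siMYC names the label here too. The mesenchymal markers Vim and Zeb1 summed to 1078 to 1129 CPM with siMYC1 and 1012 to 1083 with siMYC2, against 531 to 574 with control siRNA, while fibroblast markers did not exceed 13.6 and overlapped between groups, and the part of the mesenchymal list was not tested. Of the 10 members, 6 were called, where 46.2% of all genes were. Ccnd1 was at 9704, 9797 and 9132 with siMYC1 and 9044, 10033 and 9627 with siMYC2, against 4882, 4637 and 4477 with control siRNA. All 6 MYC siRNA libraries stand well above all 3 controls, and Ccnd1 rose by 1.03 ± 0.04, limma adjusted p = 2.83e-16. Ccnd2, the D-type cyclin that the human lines barely express, was at 758, 859 and 837 with siMYC1 and 850.1, 873 and 864 with siMYC2, against 1124, 1314 and 1201 with control siRNA. It was lower in every MYC siRNA library (-0.53 ± 0.05, limma adjusted p = 5.82e-09).

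The other 4 calls in 4T1 were small rises. Cdkn2c was at 1035, 1112 and 1138 with siMYC1 and 991, 1118 and 1081 with siMYC2, against 961, 933 and 847 with control siRNA (0.24 ± 0.05, limma adjusted p = 0.00042), without overlap. Ccne1 (0.47 ± 0.15), Ccne2 (0.30 ± 0.10) and Cdk4 (0.11 ± 0.04) lost their calls without control replicates: Ccne1 without replicate 1 (0.32, adjusted p = 0.112), Ccne2 without replicate 1 (0.25, adjusted p = 0.0713) or 2 (0.28, adjusted p = 0.0514), and Cdk4 without replicate 2 (0.10, adjusted p = 0.0752), replicate 3 (0.10, adjusted p = 0.0873) or siMYC2 replicate 2 (0.11, adjusted p = 0.0514). Adjusted p over all alternatives ran 0.00361 to 0.177 for Ccne1, 0.00272 to 0.134 for Ccne2 and 0.0144 to 0.804 for Cdk4, whose log2 difference was 0.01, adjusted p = 0.804 after quantile normalization. Ccnd3, Cdk6, Cdkn1b and Rb1 were at 0.11 ± 0.05, -0.06 ± 0.05, 0.02 ± 0.05 and 0.01 ± 0.08 and did not pass the test. Between siMYC2 and siMYC1, 0.0% of genes were called by limma, edgeR or DESeq2, with 372, 337 and 70 genes at an unadjusted p under 0.05. Of E2F-driven S phase genes, 10 of 17 were higher and 3 lower, with a median log2 difference of 0.19, against a median of -0.0048 over all genes, and Cdc6, a licensing factor, was at 0.65 ± 0.09. With 1 siRNA alone, Ccne1 was 0.29, adjusted p = 0.177 in siMYC2 and Ccne2 0.21, adjusted p = 0.134 in siMYC1, and libraries of Ccne1 and Ccne2 overlap with control. In 4T1, pocket proteins, E2F and DP factors had 4 of 12 higher and 3 lower, or 3 and 4 after quantile normalization (median 0.05), and CDK2 and its activators 2 of 6 higher and 0 lower (median 0.00043). Genes of cyclin and p27 turnover had 1 of 7 higher and 3 lower (median -0.01), and other CDK inhibitors 2 of 2 higher and 0 lower (median 0.39).

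**Figure D3:**
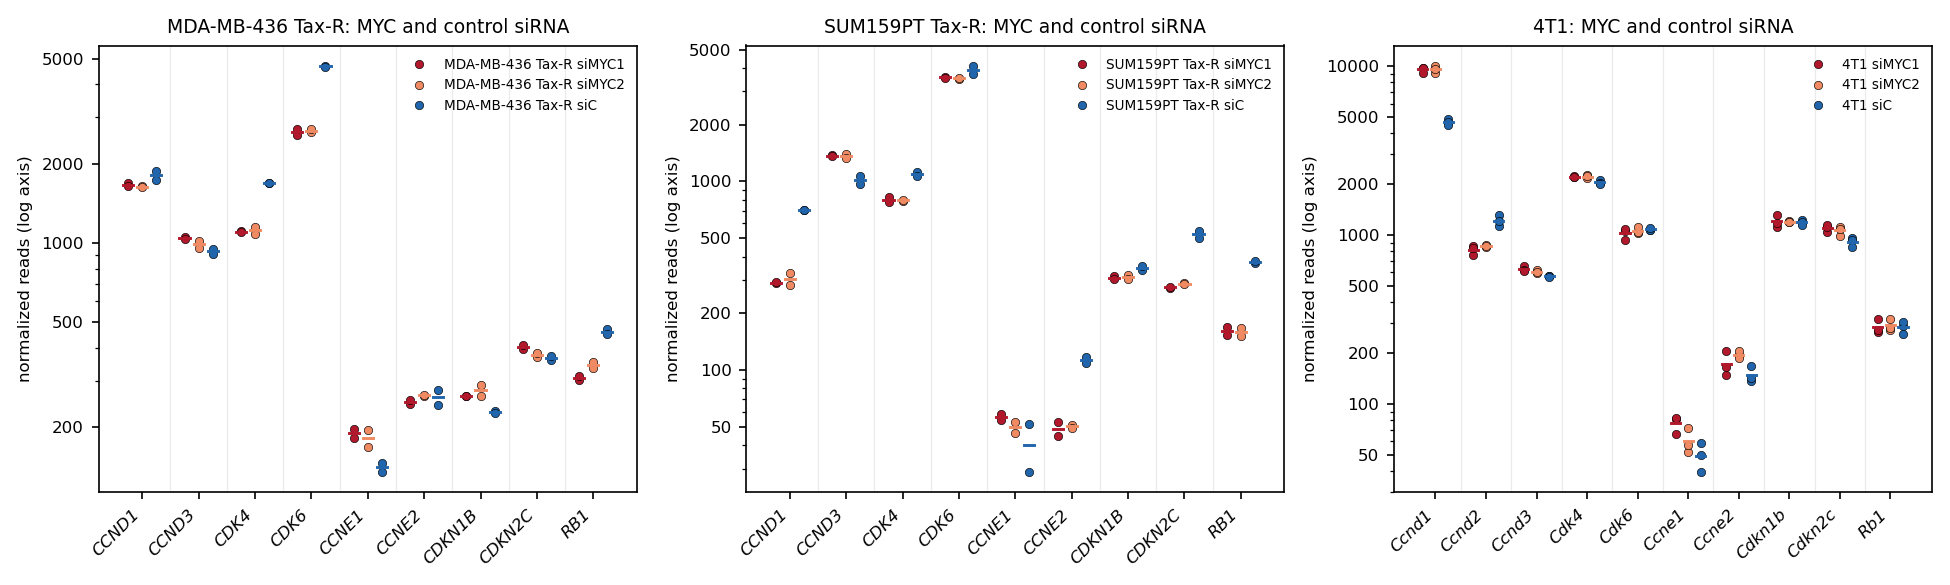
Normalized reads on a log axis, 1 point a library and a bar at each group mean, for siMYC1 (red), siMYC2 (orange) and control siRNA (blue), with n = 2 a group in the human lines and 3 in 4T1. Points of the 2 MYC siRNAs lie close together; CDK4, CDK6 and RB1 are below control in both human lines, and Ccnd1 is above control in 4T1.

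STING sgRNA cells differed from mock cells in CCND1, CCND3 and CDKN2C in both lines, but CCND1 and CDKN2C went opposite ways. TMEM173 was at 55.1 and 41.7 in C1 and 44.00 and 46.05 in C2, against 182 and 158 in mock libraries of MDA-MB-436. It was at 94.9 and 114 in C1 and 101 and 92.7 in C2, against 261 and 229 in mock, in SUM159PT, so that both lines kept some transcript. In MDA-MB-436 4 of 9 members were called, where 47.8% of all genes were, a share near the background. In SUM159PT 6 of 9 were called, where 39.1% were. Fibroblast markers summed to 534 to 544 CPM in C1 and 457 to 484 in C2, against 668 to 676 in mock libraries of MDA-MB-436, and to 50.6 to 55.6 in C1 and 54.7 to 54.8 in C2, against 172 to 182 in mock libraries of SUM159PT. Endothelial markers in SUM159PT were at 22.99 to 24.1 in C1 and 23.1 to 24.8 in C2, against 6.53 to 7.68 in mock, and the part of these lists was not tested.

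CCND1 was at 4097 and 3949 in C1 and 3958 and 3868 in C2, against 3019.5 and 2885 in mock libraries of MDA-MB-436. All 4 STING sgRNA libraries were higher (0.43 ± 0.03, limma adjusted p = 1.22e-11). The SUM159PT libraries held 1470.0 and 1386 in C1 and 1418 and 1419 in C2, against 1596 and 1572 in mock. All 4 were lower there (-0.16 ± 0.04, limma adjusted p = 0.00335). CDKN2C was at 246 and 225 in C1 and 255 and 243 in C2, against 360.1 and 347 in mock in MDA-MB-436, where it fell without overlap (-0.55 ± 0.08, limma adjusted p = 1.31e-06). SUM159PT libraries were at 463 and 437 in C1 and 383 and 394 in C2, against 360.5 and 352 in mock (0.23 ± 0.07, limma adjusted p = 0.00497). That rise was 0.34 ± 0.08, limma adjusted p = 0.000887, in C1 alone and 0.12 ± 0.08, limma adjusted p = 0.192, in C2 alone.

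CCND3 was lower in both lines. In SUM159PT it was at 708 and 674 in C1 and 563 and 592 in C2, against 854 and 780.4 in mock libraries, with every sgRNA library below both mock libraries (-0.37 ± 0.06, limma adjusted p = 7.01e-07). It was -0.24 ± 0.06 in C1 alone and -0.50 ± 0.06 in C2 alone. In MDA-MB-436 the log2 difference was -0.15 ± 0.05, limma adjusted p = 0.0239. That call was lost without mock replicate 1 (-0.14, adjusted p = 0.158), mock replicate 2 (-0.16, adjusted p = 0.113) or C1 replicate 2 (-0.11, adjusted p = 0.0884), range 0.00432 to 0.181. RB1 rose in MDA-MB-436, at 433 and 425 in C1 and 481 and 519 in C2, against 381 and 351 in mock (0.34 ± 0.07, limma adjusted p = 9.26e-05). In SUM159PT, where RB1 is low in this table, it was at 30.4 and 42.98 in C1 and 31.9 and 22.7 in C2, against 26.7 and 20.2 in mock, and did not pass the test (0.41 ± 0.24, limma adjusted p = 0.172).

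CCNE2 was at 575 and 618 in C1 and 644 and 647 in C2, against 408 and 407 in mock libraries of SUM159PT. Both mock libraries lie far below (0.60 ± 0.06, limma adjusted p = 2.88e-11). In MDA-MB-436 it was at -0.14 ± 0.07 and did not pass. CDKN1B rose in SUM159PT, at 186 and 184 in C1 and 149 and 167 in C2, against 133 and 139 in mock (0.33 ± 0.10, limma adjusted p = 0.00782), though without mock replicate 1 it was 0.29, adjusted p = 0.081 and in C2 alone 0.21, adjusted p = 0.134 (range 0.00368 to 0.142). CDK4 was -0.17 ± 0.04, limma adjusted p = 0.00235, in SUM159PT, with overlapping groups. Without mock replicate 1 it was -0.12, adjusted p = 0.0594, in C1 alone -0.07, adjusted p = 0.375 and in C2 alone -0.26, adjusted p = 4.02e-05. CDK6 did not pass the test in either line (0.06 ± 0.07 and 0.07 ± 0.06), nor did CCNE1 (-0.02 ± 0.10 and -0.06 ± 0.09). DESeq2 did not call CDKN1B (0.33, adjusted p = 0.142) or CDKN2C (0.23, adjusted p = 0.103) in SUM159PT, or CCND3 in MDA-MB-436 (-0.16, adjusted p = 0.113).

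C1 and C2 were compared directly. In MDA-MB-436, limma called 0 of 9 members between C2 and C1, where 0.797% of all genes were called, and edgeR and DESeq2 called 0 members. At an unadjusted p under 0.05 there were 2153 genes by limma (14.07% of all) and 2117 by edgeR (13.83%), with 1 member in each. By DESeq2 there were 558 (3.65%), 0 of them members. In SUM159PT, 4 of 9 were called, where 19.9% of all genes were. CCND3 (-0.26 ± 0.06), CDK4 (-0.20 ± 0.05) and CDKN2C (-0.21 ± 0.08) were lower and CDK6 (0.19 ± 0.07) was higher in C2 than in C1. All 4 calls were lost without C1 replicate 1 and without C2 replicate 1, where CCND3 was -0.22, adjusted p = 0.0789 and -0.22, adjusted p = 0.0616, CDK4 -0.16, adjusted p = 0.124 and -0.16, adjusted p = 0.101, CDK6 0.21, adjusted p = 0.134 and 0.19, adjusted p = 0.153, and CDKN2C -0.17, adjusted p = 0.297 and -0.19, adjusted p = 0.196. CDK6 and CDKN2C also lost theirs without C1 replicate 2 (0.17, adjusted p = 0.225 and -0.25, adjusted p = 0.0843) or C2 replicate 2 (0.19, adjusted p = 0.194 and -0.23, adjusted p = 0.13). DESeq2 called 1 of these 4.

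Listed genes around the members moved in both directions in the STING sgRNA cells. Of E2F-driven S phase genes, 6 of 17 were higher and 3 lower, with a median log2 difference of 0.05 in MDA-MB-436, against a median of 0.01 over all genes, and 5 of 17 were higher and 3 lower, with a median log2 difference of 0.04 in SUM159PT, against -0.0037. TFDP1, the partner of E2F factors, fell by 1.04 ± 0.03 on the log2 scale in MDA-MB-436 and rose by 0.66 ± 0.03 in SUM159PT. RBL1, the RB1 relative p107, rose in both (0.46 ± 0.06 and 0.45 ± 0.07). CDK7, the kinase that activates CDK2, rose in MDA-MB-436 (0.52 ± 0.06) and fell in SUM159PT (-0.47 ± 0.08). For STING sgRNA in MDA-MB-436, pocket proteins, E2F and DP factors had 5 of 12 higher and 3 lower (median 0.08), and CDK2 and its activators 3 of 6 higher and 1 lower (median 0.18). Cyclin and p27 turnover genes had 3 of 8 higher and 2 lower (median 0.05), and other CDK inhibitors 0 of 3 higher and 1 lower (median -0.61). For the same in SUM159PT, pocket proteins, E2F and DP factors had 6 of 12 higher and 2 lower (median 0.14), and CDK2 and its activators 0 of 6 higher and 3 lower (median -0.09). In SUM159PT, cyclin and p27 turnover genes had 1 of 8 higher and 0 lower (median -0.03), and other CDK inhibitors 2 of 3 higher and 0 lower (median 0.57).

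Adding the STING ORF to STING sgRNA cells went with more CDK6 and less CCNE1 in both lines. TMEM173 was at 614 and 579 with STING ORF, against 32.1 and 20.98 with GFP ORF in MDA-MB-436. The SUM159PT libraries held 1599 and 1455 with STING ORF, against 65.4 and 81.1 with GFP ORF. In MDA-MB-436 4 of 9 members were called, where 21.1% of all genes were. In SUM159PT 4 of 9 were called too, where 26% were. Fibroblast markers summed to 291 to 311 CPM with STING ORF, against 430 to 442 with GFP ORF in MDA-MB-436, and to 29.7 to 38.9 with STING ORF, against 49.5 to 50.6 with GFP ORF in SUM159PT, and their part was not tested.

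CDK6 was at 1126 and 1119.8 with STING ORF, against 614 and 675 with GFP ORF in MDA-MB-436. In SUM159PT, STING ORF libraries held 419 and 476, against 285 and 296 in GFP ORF libraries. The groups are well apart in both lines. Log2 differences were 0.80 ± 0.08, limma adjusted p = 5.45e-09, in MDA-MB-436, and 0.62 ± 0.11, limma adjusted p = 0.0001, in SUM159PT. The call held under every alternative run, with adjusted p of 7.32e-31 to 0.0116 in MDA-MB-436 and 7.39e-10 to 0.0344 in SUM159PT.

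CDK4, the sister kinase, went opposite ways. It was at 1445 and 1336 with STING ORF, against 1879.8 and 1683 with GFP ORF in MDA-MB-436 (-0.36 ± 0.08, limma adjusted p = 0.000939). SUM159PT libraries were at 1581 and 1539 with STING ORF, against 1312 and 1309.8 with GFP ORF (0.25 ± 0.07, limma adjusted p = 0.0125). Groups do not overlap in either line. The call was lost without STING ORF replicate 2 in MDA-MB-436 (-0.30, adjusted p = 0.062, range 5.11e-08 to 0.083), and without GFP ORF replicate 1 (0.25, adjusted p = 0.259) or 2 (0.25, adjusted p = 0.243) in SUM159PT.

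CCNE1 was at 171 and 175 with STING ORF, against 259 and 199 with GFP ORF in MDA-MB-436. In SUM159PT it was at 158 and 156 with STING ORF, against 214 and 190.5 with GFP ORF. STING ORF libraries were lower in both lines, without overlap (-0.39 ± 0.13, limma adjusted p = 0.0284, in MDA-MB-436 and -0.37 ± 0.13, limma adjusted p = 0.0375, in SUM159PT). In MDA-MB-436 the call was lost without GFP ORF replicate 1 (-0.20, adjusted p = 0.455), STING ORF replicate 1 (-0.37, adjusted p = 0.0967) or STING ORF replicate 2 (-0.41, adjusted p = 0.0966), range 0.00124 to 0.455, and in SUM159PT without GFP ORF replicate 1 (-0.28, adjusted p = 0.436) or 2 (-0.45, adjusted p = 0.131), range 0.00978 to 0.436.

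The remaining calls were in 1 line each. RB1 was at 476 and 504 with STING ORF, against 338 and 357 with GFP ORF in MDA-MB-436, and rose without overlap (0.50 ± 0.10, limma adjusted p = 0.000315). In SUM159PT, at 18.97 and 30.9 with STING ORF against 22.7 and 24.5 with GFP ORF, it did not pass (0.04 ± 0.29, limma adjusted p = 0.94). CDKN2C was at 268 and 225 with STING ORF, against 368 and 321 with GFP ORF in SUM159PT. It fell there (-0.48 ± 0.12, limma adjusted p = 0.00331), a call lost without GFP ORF replicate 1 (-0.38, adjusted p = 0.189, range 1.07e-05 to 0.189), and was at -0.19 ± 0.13 in MDA-MB-436, which did not pass. CCND1 missed the threshold in both lines (-0.14 ± 0.07, limma adjusted p = 0.149, in MDA-MB-436 and 0.16 ± 0.07, limma adjusted p = 0.0912, in SUM159PT), but in SUM159PT it passed without STING ORF replicate 1 (0.18, adjusted p = 0.0176) or 2 (0.15, adjusted p = 0.0489), range 0.0161 to 0.656. CCND3, CCNE2 and CDKN1B were between -0.08 and 0.25 over both lines and did not pass. Neither CCNE1 in either line (-0.40, adjusted p = 0.207 and -0.38, adjusted p = 0.21) nor CDK4 in SUM159PT (0.24, adjusted p = 0.0512) was called by DESeq2.

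CDKN1A, the inhibitor p21, was the listed gene that fell most with STING ORF in both lines (-1.21 ± 0.14 in MDA-MB-436 and -1.85 ± 0.13 in SUM159PT). E2F1 also fell in both (-0.33 ± 0.10 and -0.43 ± 0.10), while SKP2 rose (0.23 ± 0.08 and 0.36 ± 0.08). Of E2F-driven S phase genes, 1 of 17 were higher and 3 lower, with a median log2 difference of -0.09 in MDA-MB-436, and 3 of 17 were higher and 5 lower, with a median log2 difference of -0.04 in SUM159PT, against medians of -0.01 and 0.01 over all genes. Counts of that list in MDA-MB-436 depended on scaling: after quantile normalization 3 were higher and 0 lower. STING ORF in MDA-MB-436 gave a mixed picture: pocket proteins, E2F and DP factors had 2 of 12 higher and 2 lower (median -0.02), and CDK2 and its activators 0 of 6 higher and 0 lower (median -0.04). For cyclin and p27 turnover genes the counts were 1 of 8 higher and 0 lower (median -0.04), and other CDK inhibitors 0 of 2 higher and 1 lower (median -0.52). STING ORF in SUM159PT did too: pocket proteins, E2F and DP factors had 2 of 12 higher and 1 lower (median -0.04), and CDK2 and its activators 1 of 6 higher and 0 lower (median 0.19). Turnover genes of cyclins and p27 had 3 of 8 higher and 1 lower (median 0.10), and other CDK inhibitors 0 of 4 higher and 1 lower (median -0.10).

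In Py230 cells carrying a Sting1 shRNA, doxycycline went with far less Ccnd2 and Ccne1 and with more Rb1 and Cdk6. Tmem173, the shRNA's target, was at 48.3, 47.5 and 42.9 with doxycycline, against 841, 768 and 886 with vehicle. Myc was lower too, at 1020.1, 964 and 998 with doxycycline against 2769.9, 3281 and 3274 with vehicle (-1.64 ± 0.05, limma adjusted p = 1.41e-18). Of the 10 members, 9 were called, where 67.8% of all genes were. Vim and Zeb1 summed to 329 to 370.3 CPM with doxycycline, against 95.0 to 114 with vehicle, and fibroblast markers to 19.3 to 25.3 with doxycycline, against 31.4 to 38.7 with vehicle, and the part of these lists was not tested. Without a doxycycline group that lacks the shRNA, the drug and the knockdown cannot be told apart.

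Ccnd2, a D-type cyclin, was at 173, 229.9 and 223 with doxycycline, against 810.3, 774 and 839.8 with vehicle. Ccne1 was at 33.2, 49.7 and 31.04 with doxycycline, against 176, 142 and 169 with vehicle. For both, all 3 doxycycline libraries lie far below all 3 vehicle libraries. The log2 differences were -1.96 ± 0.08, limma adjusted p = 2e-16, for Ccnd2 and -2.09 ± 0.16, limma adjusted p = 2.38e-11, for Ccne1.

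Rb1 was at 1209, 1288 and 1070.1 with doxycycline, against 508, 582 and 569 with vehicle. Cdk6 was at 241, 224 and 233 with doxycycline, against 133, 139 and 146 with vehicle. Both rose without overlap (1.10 ± 0.06, limma adjusted p = 1.3e-13, for Rb1 and 0.74 ± 0.09, limma adjusted p = 1.17e-07, for Cdk6). Cdk4, by contrast, was at 1046, 1039 and 1055 with doxycycline, against 1493, 1632 and 1516 with vehicle, and fell (-0.56 ± 0.05, limma adjusted p = 1.59e-10).

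Smaller calls were lower Ccnd1 (-0.20 ± 0.04), Ccne2 (-0.32 ± 0.08) and Cdkn2c (-0.27 ± 0.09) and higher Ccnd3 (0.18 ± 0.06). Ccnd1 was at 3573, 3692 and 3581 with doxycycline, against 4297, 3987 and 4145 with vehicle, and all 3 of the doxycycline libraries were lower. The Ccnd3 call was lost without vehicle replicate 2 (0.09, adjusted p = 0.185) or doxycycline replicate 3 (0.16, adjusted p = 0.0652), range 0.00173 to 0.185. Cdkn1b was the member without a call (-0.12 ± 0.06, limma adjusted p = 0.0969) but passed without vehicle replicate 1 (-0.18, adjusted p = 0.014, range 0.014 to 0.472). Cdkn2c was not called by DESeq2 (-0.25, adjusted p = 0.0675).

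Of E2F-driven S phase genes, 1 of 17 were higher and 14 lower, with a median log2 difference of -0.38 with doxycycline, against a median of -0.01 over all genes. Ccna2, the S phase cyclin, fell by 1.38 ± 0.07 on the log2 scale, Pola1, a DNA polymerase subunit, by 1.18 ± 0.09 and Mcm7 by 1.10 ± 0.05. With doxycycline, pocket proteins, E2F and DP factors had 5 of 12 higher and 7 lower (median -0.41), and CDK2 and its activators 2 of 6 higher and 3 lower (median -0.08). Under doxycycline, cyclin and p27 turnover genes had 3 of 7 higher and 4 lower (median -0.22), and other CDK inhibitors 2 of 4 higher and 0 lower (median 0.36). Rbl1 fell by 1.35 ± 0.09 and E2f4, a repressive E2F, by 0.93 ± 0.06. The inhibitors Cdkn1a (0.75 ± 0.05) and Cdkn2a (0.65 ± 0.13) rose.

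**Figure D4:**
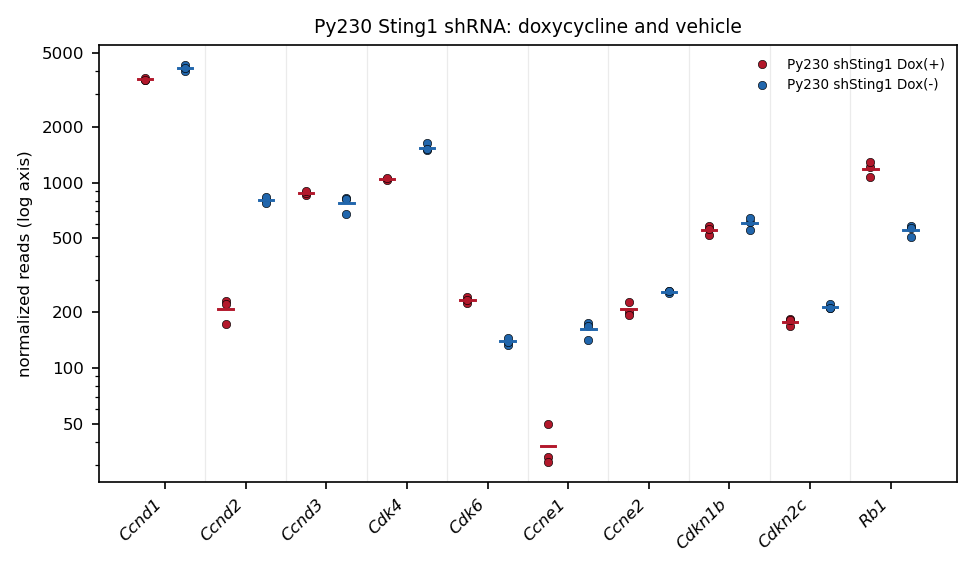
Normalized reads on a log axis for the 10 members in Py230 cells with a Sting1 shRNA, with 1 point a library (n = 3 a group) and a bar at each group mean, doxycycline in red and vehicle in blue. Ccnd2 and Ccne1 are far lower and Rb1 and Cdk6 higher with doxycycline, without overlap.

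Over the 10 comparisons, the share of all genes called ran from 21.1% to 69.5%, so that several calls per gene are common. CDK4 had the most calls of the members, 8, with 3 higher and 5 lower. Some alternatives lost its calls in SUM159PT Tax-R cells, 4T1 cells, SUM159PT STING sgRNA cells and STING ORF cells of both lines. CCND1, CCNE1 and CDK6 had 7 each. CDK6 was higher in 5 and lower in 2, the lower ones being the MYC siRNA comparisons in the human lines. CCND2, tested in the 2 mouse tables alone, was lower in both. CDKN1B had 5 calls, the largest of -0.39 in Tax-R cells of SUM159PT, and CCNE2 had 4. Several comparisons share a line but not libraries, and each has its own background, so these counts are a description.

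**Figure D5:**
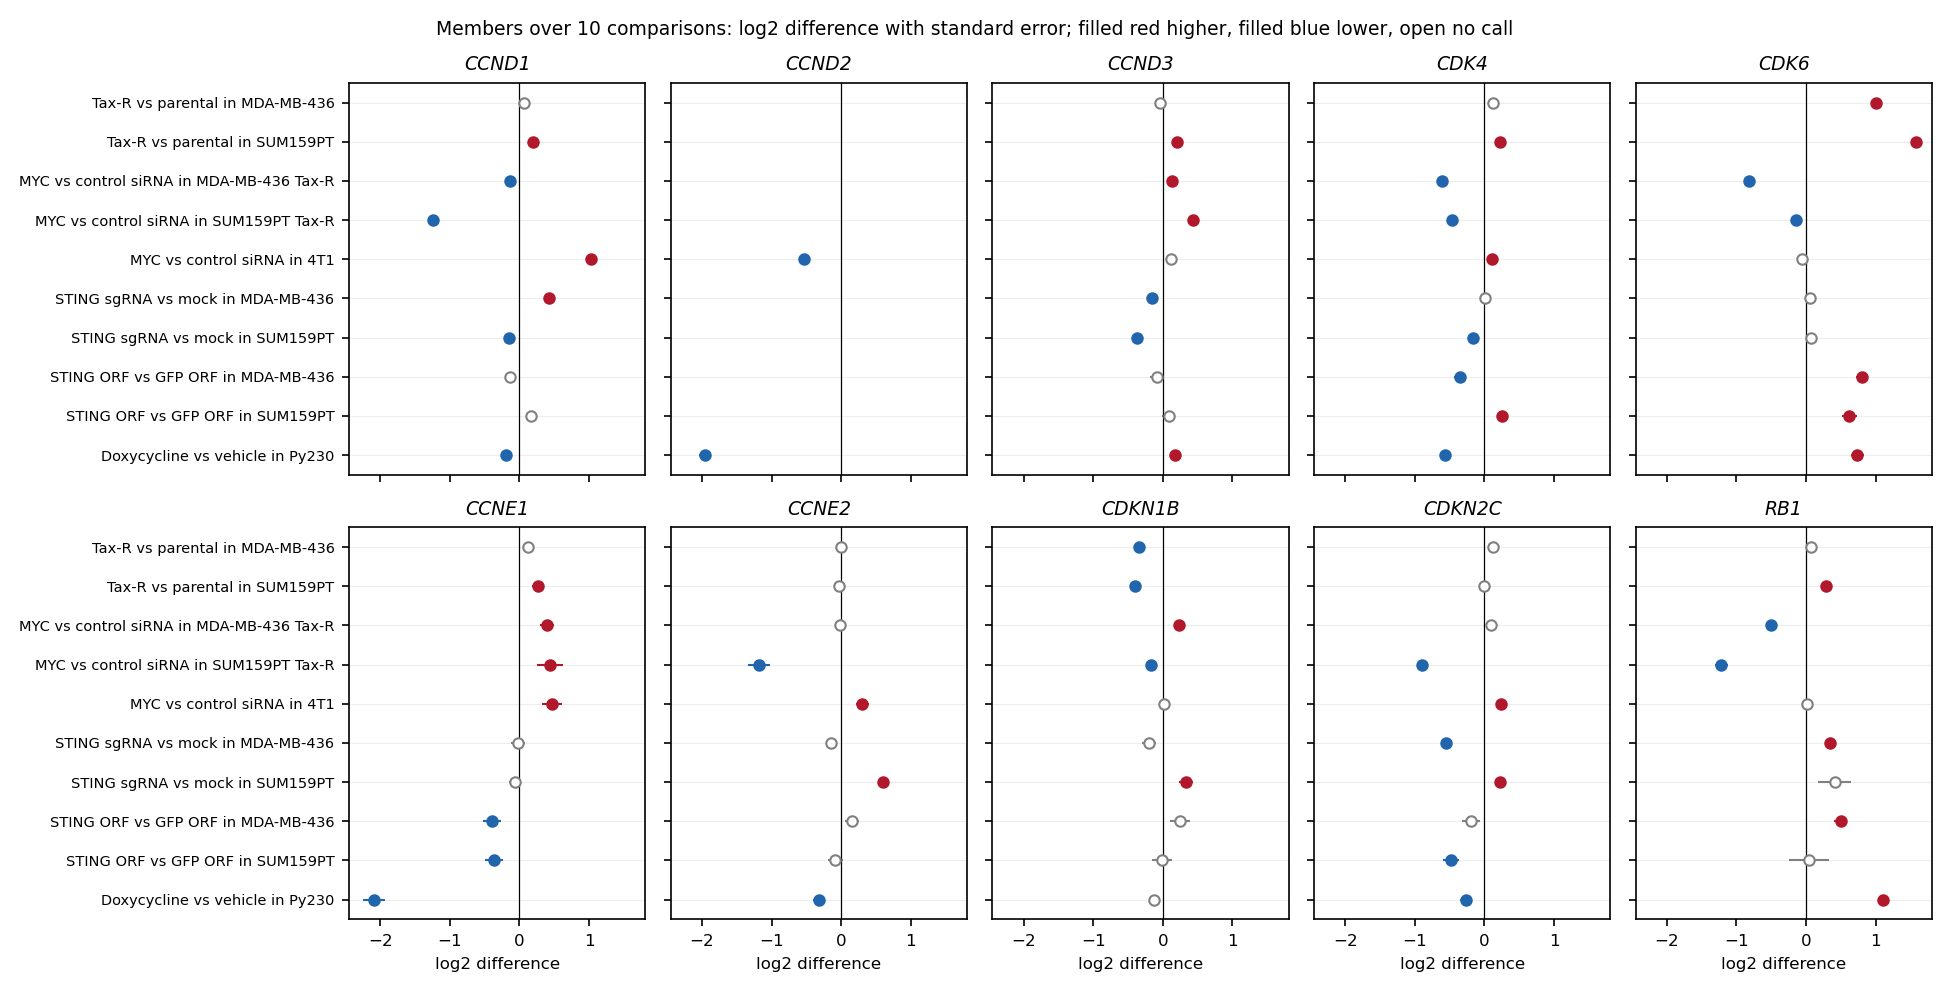
Log2 difference of each member in the 10 comparisons, with its standard error; filled red points were called higher, filled blue points lower, and open points were not called, while a missing point was not tested. CDK6 shows the highest values in the Tax-R comparisons, at 1.01 and 1.58, and CCNE1 and CCND2 the lowest in Py230, at -2.09 and -1.96.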

How the data were processed

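Per the labels, a Maxwell RSC simplyRNA Cells kit gave the RNA, which was sequenced by Illumina protocols. In the deposited signal values, the authors had scaled each library's gene read counts by a single factor, table by table. HISAT2, featureCounts, StringTie and DESeq2 are named, with no version, in the submitters' processing notes. The authors' genome build and annotation are not given in the sources used here. The value of 1 read was found for each library, and 100% of values came out whole within 0.05 reads, so that reads were recovered, and their totals are the depths given. All columns of per-sample values were mapped, with 0 unmapped.

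Each table was fitted alone with limma-trend on log2(value + 1), two-sided, for genes whose table mean reached 10, with Benjamini-Hochberg adjustment over all genes tested and a threshold of 0.05. A table with 2 perturbed groups was tested as the average of both against its control. Fold changes are on that log2 scale and understate changes of low genes. The results were recomputed with quantile normalization, with a pseudocount of 4, without the filter, with the replicate number as a block, with each perturbed group alone, with each library left out, by edgeR and by DESeq2 on the recovered reads and, added after seeing the data, the MDA-MB-436 Tax-R pair counted as 1. The tests were checked on simulated data with 200 changed genes and the same spread setting for all genes. All 200 changed by the same amount, larger than most member differences here. This check does not show how well small differences are found. R 4.3.3, limma 3.58.1, edgeR 4.0.16, DESeq2 1.42.0, Python 3.11.15, pandas 2.3.3 and numpy 2.4.6 were used.

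The members and lists were chosen with earlier results of these data known. All 10 members are named in every comparison, with MYC and TMEM173 as label checks. Up to 3 called genes of largest change were drawn per list, and not all of them are named. The lists are E2F-driven S phase genes (17), pocket proteins, E2F and DP factors (12), CDK2 and its activators (6), cyclin and p27 turnover genes (8) and other CDK inhibitors (5), all described by counts and medians with no set test. Levels scaled to library depth use the recovered reads, and levels per kilobase the union of exons.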

Additional observations from a re-analysis of the deposited data

Results flagged for a closer look

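Several members moved opposite ways under the same contrast in different cell lines, with every perturbed library on one side of control in one line and on the other side in another. The difference between lines was not tested, since the lines stand in separate tables.

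With MYC siRNA, the log2 difference of CCND1 was -0.13 in MDA-MB-436 Tax-R and -1.24 in SUM159PT Tax-R cells, but 1.03 in 4T1 cells. CDK4 was at -0.61 in MDA-MB-436 and -0.46 in SUM159PT, and at 0.11 in 4T1, where it was 0.01, adjusted p = 0.804 after quantile normalization and also lost its call with siMYC1 alone and without control replicate 2, control replicate 3 or siMYC2 replicate 2. CDKN1B was at 0.24 in MDA-MB-436 and -0.17 in SUM159PT. CDKN2C was at -0.90 in SUM159PT and 0.24 in 4T1.

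With STING sgRNA, CCND1 was at 0.43 in MDA-MB-436 and -0.16 in SUM159PT, and CDKN2C was at -0.55 in MDA-MB-436 and 0.23 in SUM159PT. With STING ORF, CDK4 was at -0.36 in MDA-MB-436 and 0.25 in SUM159PT. Several of these calls were lost under other alternatives, among them CCND1 with MYC siRNA in MDA-MB-436, CDKN1B with MYC siRNA in both lines, CDKN2C with STING sgRNA in SUM159PT and CDK4 with STING ORF in both lines.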

How the results depend on the processing

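Of 1726 values of 138 member results under the alternatives, 1616 kept their side of the threshold, 100 lost and 10 gained a call, and 0 called values reversed. DESeq2 gave no adjusted p in 19. Of the 1616, 63 changed sign, each called neither in the main fit nor under that alternative. With all genes, DESeq2 called 5913 in Tax-R against parental MDA-MB-436, 4447 in that of SUM159PT (3 members), 4265 and 3198 with STING sgRNA in MDA-MB-436 and SUM159PT, 1090 and 1645 (2 members) with STING ORF in MDA-MB-436 and SUM159PT, and, between C2 and C1, 31 in MDA-MB-436 and 969 (1 member) in SUM159PT. With no filter, 328 genes (2 members) and 884 genes (1 member) were called with STING ORF in MDA-MB-436 and SUM159PT, 0 between the MYC siRNAs in MDA-MB-436, and 0 genes and 0 members between C2 and C1 in either line. C1 alone gave 3487 genes in SUM159PT, and quantile normalization 2 members between C2 and C1 there. In MDA-MB-436, edgeR called 95 genes between the MYC siRNAs, 23 higher and 72 lower, where limma called 12 higher and 18 lower, and 17 and 13 after quantile normalization. Same-numbered libraries correlated at -0.09 to 0.11 in their deviations from the group mean, with 2 of 44 values over 0.1. With 2 libraries a group both replicates give the same value, so these 2 are the same value listed for each replicate. Correlations over all genes hold much read noise and cannot show whether libraries were paired. With the replicate block, 4 members were called in Tax-R against parental MDA-MB-436 (CDK4 and CDKN2C added), 71 genes between the MYC siRNAs and 195 between C2 and C1 in MDA-MB-436, and CCND1 passed with STING ORF in both lines. With each library left out in turn, calls with STING ORF were 1247 to 3610 genes (2 to 4 members) in MDA-MB-436 and 1257 to 5463 (1 to 5 members) in SUM159PT. Calls between the MYC siRNAs were 6 to 44 genes in MDA-MB-436 and 0 to 2 in SUM159PT, and those between C2 and C1 5 to 382 in MDA-MB-436 and 1221 to 3403 (0 to 4 members) in SUM159PT. The cause of these shifts was not tested. With 2 libraries a human group, members of low level, such as CCNE1 in the SUM159PT siRNA table and RB1 in the SUM159PT CRISPR and ORF tables, had standard errors of 0.19 to 0.29.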
